A study of Mus musculus with 12 samples.

Results

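The latest and the earliest response of mouse skin to an injected RNA adjuvant were compared by setting the 3 arrays of skin taken 24 h after the injection against the 3 arrays of skin taken after 1.5 h. These are 6 of 12 arrays in 4 groups of 3. The untreated and 6 h arrays entered the estimate of the spread and the description of time courses. The members of the comparison were the 19938 genes that had at least 1 probe set carrying a single platform gene symbol, and each gene was read from its probe set with the highest mean over the 12 arrays. All mice were female Balb/c, a widely used inbred strain, and no further allele is named in the labels. The groups called 1.5 h, 6 h and 24 h received RNAdjuvant in the dermis at 25 mg as labelled, a unit that could not be checked here. Mice of the untreated group received nothing, so the needle and the carrier are not separated from the adjuvant by any group used here. Age, body site and clock time are not stated in the labels used. The labels call the 3 samples of a group biological replicates without saying whether each was a separate mouse, so p-values measure the spread between these samples.

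RNAdjuvant is a non-coding RNA held in a complex with a cationic peptide, and foreign RNA of this kind is read by endosomal Toll-like receptors and by cytosolic RNA helicases. Those sensors switch on type I interferon genes and inflammatory cytokine genes directly, as a first wave. Secreted interferon then acts through its receptor and the JAK kinases on a second wave of interferon-stimulated genes, whose promoters often carry the interferon-stimulated response element. Recruited leukocytes bring transcripts of their own later. In a whole skin biopsy, fewer cells of a type and less RNA per cell cannot be told apart.

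Values are log2 intensities, so a difference of 1 is a 2-fold difference in intensity. Array medians ran from 5.53 to 5.76. Arrays correlated over all 35556 probe sets at r = 0.980 to 0.987 within the 1.5 h and 24 h groups and at 0.975 to 0.982 between them. Keratinocyte, fibroblast and other skin markers were present in the 6 arrays, for example the basal keratin gene Krt14 at a mean of 11.65 at 1.5 h and 11.46 at 24 h. The biopsies also differed in tissue content. Glycam1, a gene of lymph node vessels, measured 11.38 in 1.5 h replicate 1 and 10.88 in 6 h replicate 1, and 3.87 to 4.46 in the other 10 arrays. The B cell gene Cd79b followed it, at 7.80 and 7.29 in those arrays. Myl2, a myosin light chain of muscle, reached 10.56 and 10.43 on the first pair of 1.5 h arrays. On 24 h replicates 1 and 3 it stood at 10.57 and 9.33, and elsewhere at 4.29 to 6.88. The simple epithelial keratin gene Krt18 was high in both groups compared, at 8.23 to 9.81 at 1.5 h and 8.13 to 8.79 at 24 h, against 5.51 to 5.92 in untreated skin.

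**Figure D1:**
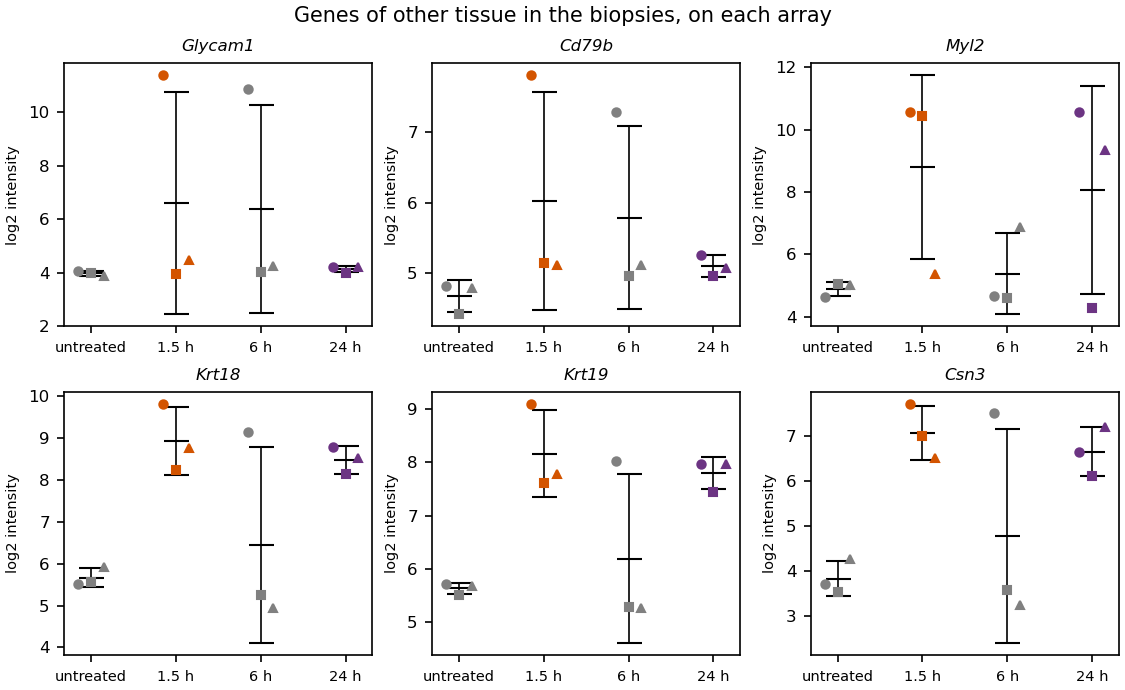
Log2 intensity on each of the 12 arrays of Glycam1 (lymph node vessels), Cd79b (B cells), Myl2 (muscle), Krt18 and Krt19 (simple epithelium) and Csn3 (milk casein), by group. Circles, squares and triangles are replicates 1, 2 and 3, long bars are group means and whiskers 1 SD. Glycam1 and Cd79b stand high in replicate 1 of the 1.5 h and 6 h groups, and Krt18, Krt19 and Csn3 lie above untreated skin in both the 1.5 h and 24 h groups.

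Between 1.5 h and 24 h many more genes were higher in the later skin than lower, and the higher ones moved further. Of 19938 genes, 580 changed (2.91%, limma, adjusted p under 0.05), 447 higher at 24 h (2.24%) and 133 lower (0.667%). At an unadjusted p under 0.05 there were 3114 in either direction (15.6%). That share is the background of the unadjusted counts given for lists below. The median difference was 0.99 log2 units over the 447 genes that rose and -0.62 over the 133 that fell, beside -0.01 over all genes. At least a 2-fold difference was reached by 218 of the genes that rose and by 14 of those that fell. In all 580 the 3 values at 24 h lay outside the range of the 3 values at 1.5 h, as they did in 18.9% of all genes (9.82% with 24 h higher and 9.12% with 24 h lower). The count was 321 without 1.5 h replicate 2 (280 higher, 41 lower) and 346 without 24 h replicate 2 (289 higher, 57 lower), and 753 without the 2 libraries high in Glycam1 (527 higher, 226 lower).

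**Figure D2:**
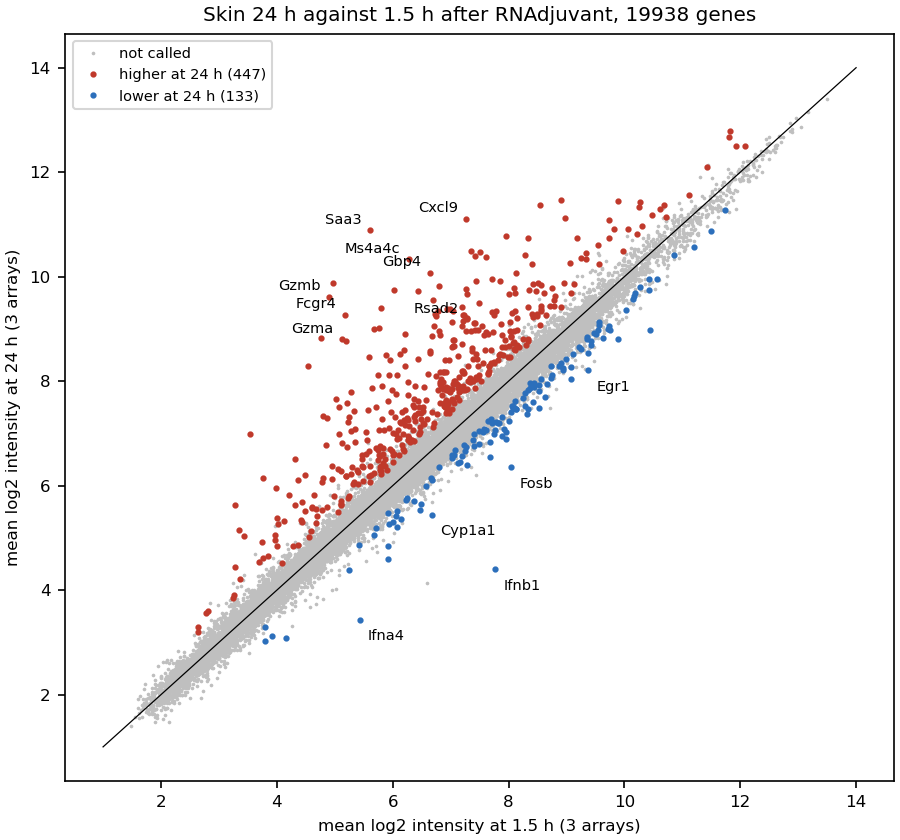
Mean log2 intensity of 19938 genes at 1.5 h (horizontal axis, 3 arrays) and 24 h (vertical axis, 3 arrays) after RNAdjuvant, with the line of equality. The 447 genes higher at 24 h (red) reach further from the line than the 133 lower ones (blue), with Saa3 and Gzmb at the upper edge and Ifnb1 farthest below it.

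The 12 largest rises among genes with a standard name were Saa3, Gzmb, Fcgr4, Ms4a4c, Cxcl9, Cxcl11, Gzma, Slfn4, Ifi209, Ifi213, Gbp4 and Phf11a, with differences from 5.29 down to 3.31 log2 units. They hold an acute phase gene, granzymes, myeloid surface genes, chemokines of the receptor Cxcr3 and interferon-inducible genes. The predicted genes Gm4841 and Gm12185 and the clone BC023105, which the naming rule skips, rose by 4.92, 3.76 and 4.06. All 12 named rises kept their call with each library left out in turn. Several belong to families of near-identical genes (Ms4a, Slfn, Ifi200, Gbp, Phf11), so probes may read more than 1 member and the split between members is uncertain.

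The 12 largest falls were Ifnb1, Ifna4, Fosb, Sprr4, Lgi1, Cyp1a1, Egr1, Cd209b, Klk10, Serpinb12, Fap and Ccl24, from -3.37 to -1.04, with the clone AF366264 (-1.08) skipped. Interferons and immediate early factors lead them. Sprr4, Klk10 and Serpinb12 are genes of the upper epidermis, Cyp1a1 is a target of the aryl hydrocarbon receptor, Cd209b a C-type lectin, and Fap a protease of activated fibroblasts. The calls of 4 of them depended on single libraries. Sprr4 (-1.45) lost its call without any 1.5 h array or 24 h replicate 1 or 2 (adjusted p up to 0.117). Lgi1 (-1.33) lost it without 1.5 h replicate 2 or 3 or 24 h replicate 2 (up to 0.131), and Serpinb12 (-1.07) without 24 h replicate 2 (0.0601). Klk10 (-1.07) lost it without any of the 6 arrays compared, untreated replicate 2 or 6 h replicate 2 (up to 0.136). Cyp1a1 and Egr1 lost their calls without moderation of the variance or with values under 5 raised to 5.

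The interferon genes Ifnb1 and Ifna4 fell between the times. Ifnb1, which encodes interferon beta (probe set 10514285), measured 8.10, 7.85 and 7.34 in the 1.5 h arrays and 4.23, 4.53 and 4.43 in the 24 h arrays. The lowest 1.5 h array lay far above the highest 24 h array, and the 6 h arrays at 5.89, 5.96 and 5.87 lay between. The mean was 7.77 ± 0.39 at 1.5 h and 4.40 ± 0.15 at 24 h (SD, n = 3), a 10.3-fold higher intensity at 1.5 h (difference -3.37, SE 0.16, adjusted p = 6.18e-08). At 24 h Ifnb1 was still above untreated skin, where it measured 3.32, 3.59 and 3.35 (difference 0.98, adjusted p = 0.00312).

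Ifna4, an interferon alpha gene (probe set 10505890), measured 6.31, 5.40 and 4.58 at 1.5 h, against 3.44, 3.47 and 3.40 at 24 h. The groups did not overlap, although the 1.5 h arrays spread widely. The difference was -1.99 (SE 0.31, adjusted p = 0.00191), and the 24 h values lay next to the untreated ones of 3.33, 3.38 and 3.29 (difference 0.10, adjusted p = 0.901). With values under 5 raised to 5 the call of Ifna4 was lost. Of 15 measured interferon ligand genes, Ifnb1 and Ifna4 fell and 13 did not pass, beside 0.667% of all genes lower at 24 h, with a list median of -0.20. Of these calls 1 remained over genes with a mean of at least 5 or with the floor. Ifng, the gamma interferon gene of NK and T cells, differed by 0.52 (95% confidence interval 0.16 to 0.87, adjusted p = 0.133). Interferon alpha genes are near-identical, so their probes may read several members.

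**Figure D3:**
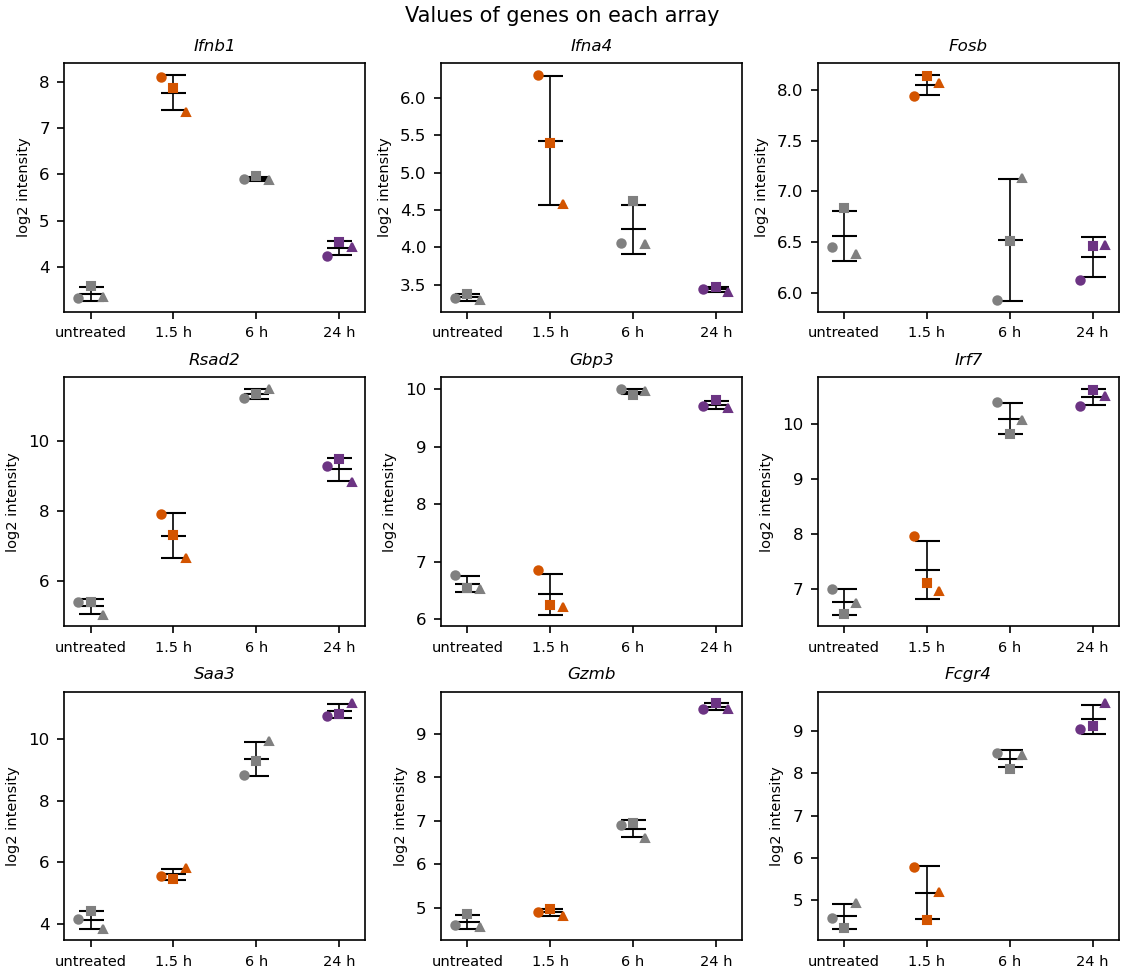
Log2 intensity of 9 genes on each of the 12 arrays, by group. Circles, squares and triangles are replicates 1, 2 and 3, long bars are group means, whiskers 1 SD, and the groups compared are in colour (1.5 h orange, 24 h purple). Ifnb1, Ifna4 and Fosb are highest at 1.5 h, Rsad2 is highest at 6 h, and Saa3, Gzmb and Fcgr4 are highest at 24 h.

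Chemokine genes that attract lymphocytes were among the largest rises. Cxcl9 (probe set 10531407), a ligand of the T and NK cell receptor Cxcr3, measured 7.64, 6.68 and 7.49 at 1.5 h, against 10.97, 11.20 and 11.16 at 24 h. The 24 h arrays lay more than 3 log2 units above the 1.5 h arrays, and the difference was 3.84 (14.3-fold, SE 0.25, adjusted p = 7.99e-07). Cxcl11, a second Cxcr3 ligand, measured 5.93, 6.14 and 6.00 at 1.5 h and 9.72, 9.73 and 9.81 at 24 h, a tight 13.3-fold difference (3.73, SE 0.22, adjusted p = 3.36e-07). The third ligand, Cxcl10, was already at 9.85, 9.48 and 8.88 at 1.5 h, against 6.28, 6.10 and 5.94 untreated, and measured 10.27, 10.43 and 9.57 at 24 h. The groups overlapped, and the difference of 0.69 (95% confidence interval 0.17 to 1.20) did not pass (adjusted p = 0.173, and 0.0474 without 24 h replicate 3).

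Ccl5, a chemokine of T cells, NK cells and monocytes, measured 9.77, 7.78 and 8.09 at 1.5 h and 11.22, 11.25 and 11.62 at 24 h. Replicate 1 of the 1.5 h group, the array high in Glycam1, stood well above its group, yet below the 24 h arrays. The difference was 2.81 (7.04-fold, SE 0.37, adjusted p = 0.000488). Xcl1, made by NK and T cells, rose by 0.96 (adjusted p = 0.00242). Ccl20, which draws Ccr6-bearing cells, fell by 0.61 (adjusted p = 0.0314), a call lost without any 1.5 h array or 24 h replicate 1 or 3 (adjusted p up to 0.0992) and without the 2 libraries high in Glycam1. In all, 4 of 15 lymphocyte and dendritic cell chemokines rose, 1 fell and 10 did not pass. These were 33.3% called, beside 2.91% of all genes (list median 0.32).

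Of 18 neutrophil and monocyte chemokines, 5 rose, 1 fell and 12 did not pass (33.3% called, beside 2.91% of all genes, list median 0.35). Ccl12, a mouse ligand of Ccr2, measured 8.92, 8.30 and 8.01 at 1.5 h and 10.20, 10.27 and 10.26 at 24 h, a 3.56-fold rise (1.83, SE 0.31, adjusted p = 0.00425). Cxcl5, a neutrophil chemokine, rose by 1.81 log2 units from 3.22, 3.40 and 3.41 to 5.47, 5.12 and 4.88 (adjusted p = 1.39e-05), and its 6 h arrays were still at 3.45 to 3.88. These values lie near the bottom of the scale, and the call was lost with values under 5 raised to 5. Ccl2 rose 2.01-fold (1.01, adjusted p = 0.0296), from 1.5 h arrays already at 9.67 to 9.88 to a 24 h mean of 10.75. Its call was lost without 1.5 h replicate 2 or 3 or any 24 h array (up to 0.138). Ccl24, an eosinophil chemokine, fell by 1.04, from 8.70, 8.25 and 8.62 to 7.31, 7.36 and 7.77 (adjusted p = 0.00277). Cxcl1, a neutrophil attractant, differed by 0.17 (95% confidence interval -0.40 to 0.75, adjusted p = 0.819). The 5 rises became 2 without 1.5 h replicate 2 and 3 without 24 h replicate 2 or 3. They were 2 without moderation of the variance, 3 over genes with a mean of at least 5, and 1 with values under 5 raised to 5.

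Of 29 inflammatory cytokine genes, Tnfsf10 and Il15 rose (6.9% called, beside 2.91% of all genes) and 27 did not pass, with a median of 0.01 (limma, 5 at an unadjusted p under 0.05), and 4 rose without the 2 libraries high in Glycam1. Tnfsf10, the death ligand TRAIL, measured 5.35, 5.11 and 5.59 at 1.5 h and 7.12, 6.93 and 6.43 at 24 h (1.48, SE 0.20, adjusted p = 0.000583). Il15, which supports NK cells, measured 6.26, 6.37 and 6.20 and then 7.03, 7.11 and 7.30 (0.87, SE 0.14, adjusted p = 0.00208). Both were higher still at 6 h, at 8.41 to 8.78 for Tnfsf10 and 7.93 to 8.45 for Il15. Il6, a fever and acute phase cytokine, measured 6.36, 6.44 and 5.66 at 1.5 h and 5.19, 5.67 and 4.98 at 24 h. These groups overlapped only between 1 pair of arrays, and the difference of -0.88 (95% confidence interval -1.74 to -0.01) did not pass (adjusted p = 0.312). Tnf differed by 0.22 (95% confidence interval -0.16 to 0.60, adjusted p = 0.6) and Il1b by 0.62 (0.19 to 1.05, adjusted p = 0.132, and 0.0391 without 1.5 h replicate 1). Tnf was above untreated skin at both times, by 0.96 at 1.5 h (adjusted p = 0.0181) and by 1.19 at 24 h (adjusted p = 0.00117).

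Of 17 receptors of cytokines and chemokines, Ccr2 and Csf3r rose, Il6ra fell and 14 did not pass (17.6% called, beside 2.91% of all genes, list median 0.00), and 1 rose without moderation of the variance. Ccr2, the receptor of Ccl2 and Ccl12 on monocytes, measured 8.06, 7.31 and 7.95 at 1.5 h and 9.34 ± 0.29 (SD, n = 3) at 24 h with a highest array of 9.53, a 2.95-fold rise without overlap (1.56, SE 0.24, adjusted p = 0.00168). At 6 h it was still at 7.61 to 8.40, beside 7.73 to 8.28 in untreated skin. Csf3r, the G-CSF receptor of neutrophils, rose by 0.85 (adjusted p = 0.00696), a call lost without moderation. Il6ra fell by 0.49 (adjusted p = 0.0206), which was lost without 1.5 h replicate 2 or 3 or any 24 h array (up to 0.0882). Among 19 growth factor genes 10.5% were called, beside 2.91% of all genes. Fgf7, a keratinocyte growth factor, rose by 0.57 and Ereg, an EGF receptor ligand, fell by 0.93. Fgf7 averaged 8.07 untreated, 7.29 at 1.5 h and 7.86 at 24 h, and Ereg 8.02, 8.63 and 7.70. Fgf7 lost its call without 1.5 h replicate 3 or 24 h replicate 2 (up to 0.0755). Ereg lost it without untreated replicate 1 or 3, 1.5 h replicate 2 or 3, 6 h replicate 2 or 24 h replicate 1 or 2 (up to 0.177), and a second gene fell without the 2 libraries high in Glycam1.

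Sensors of foreign nucleic acid and their adaptors were higher at 24 h in 12 of 20 cases, beside 2.24% of all genes. None was lower, and the list median was 0.60. Zbp1, a sensor of Z-form nucleic acid, measured 8.32, 7.30 and 7.24 at 1.5 h and 10.29, 10.58 and 10.25 at 24 h (2.75, SE 0.23, adjusted p = 8.36e-06). Irf7, the factor that amplifies interferon alpha transcription, measured 7.96, 7.11 and 6.98 and then 10.32, 10.62 and 10.51, an 8.77-fold rise (3.13, SE 0.23, adjusted p = 2.43e-06). For both genes 1.5 h replicate 1 was the highest of its group and the 24 h arrays lay close together, more than 1.9 log2 units above it. The RNA helicase genes Ddx58 (RIG-I), Ifih1 (MDA5) and Dhx58 rose by 1.62, 1.51 and 1.80 (adjusted p = 5.53e-05, 2.98e-06 and 0.000128). Their 6 h arrays were above the 24 h ones for Ddx58 (9.80 to 10.16 against 8.84 to 9.09) and Ifih1 (10.52 to 10.68 against 9.20 to 9.40). Tlr3, the endosomal receptor of double-stranded RNA, rose by 0.77 (adjusted p = 0.00638). Tlr7, the receptor of single-stranded RNA, measured 6.38 to 6.65 at 1.5 h and 6.48 to 7.11 at 24 h, and its difference of 0.23 (95% confidence interval -0.27 to 0.74) did not pass (adjusted p = 0.698). The 12 rises became 8 without 1.5 h replicate 2 or 3 or 24 h replicate 2.

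Immediate early factors, which are transcribed within minutes of a stimulus, fell in 5 of 29 cases (17.2%, beside 0.667% of all genes). None rose, 24 did not pass, and the list median was -0.31. In limma 19 had an unadjusted p under 0.05, beside 15.6% of all genes in either direction. Fosb, a subunit of AP-1 (probe set 10560481), measured 7.94, 8.14 and 8.07 at 1.5 h, against 6.12, 6.46 and 6.47 at 24 h. The 1.5 h arrays lay well above the rest, since untreated skin measured 6.38 to 6.84 and the 24 h arrays lay beside it. The difference was -1.70 (3.24-fold higher at 1.5 h, SE 0.23, adjusted p = 0.000719). Egr1, a zinc finger factor, measured 9.16, 9.44 and 9.52 and then 8.29, 8.61 and 7.74 (-1.16, SE 0.22, adjusted p = 0.00808). Fosl1 fell by 0.88 (adjusted p = 0.003), and Egr3 by 0.65 (adjusted p = 0.0266), a call lost without 1.5 h replicate 2 or 3 or 24 h replicate 1 or 3 (up to 0.0992). Fos differed by -0.76 (95% confidence interval -1.28 to -0.24, adjusted p = 0.132, and 0.04 without 6 h replicate 1). The 5 falls became 3 without 1.5 h replicate 2 or 24 h replicate 3, and 2 without moderation of the variance or with values under 5 raised to 5. Of 21 NF-kB subunits and feedback genes, 0 passed in limma, with 8 at an unadjusted p under 0.05, and 2 rose without the 2 libraries high in Glycam1. In a list this short 0 calls is near the 2.91% of all genes called. Nfkbia, the inhibitor that NF-kB induces, differed by 0.14 (95% confidence interval -0.26 to 0.54).

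Among interferon receptors and JAK-STAT genes, 4 of 15 rose, 1 fell and 10 did not pass. These were 33.3% called, beside 2.91% of all genes (list median 0.08). Usp18, which switches off the interferon receptor, measured 7.39, 6.94 and 6.49 at 1.5 h and 9.42, 9.50 and 9.23 at 24 h (2.45, SE 0.18, adjusted p = 2.89e-06). Stat2, a subunit of the factor ISGF3, measured 7.45, 7.13 and 7.13 and then 9.20, 9.54 and 9.07 (2.03, SE 0.15, adjusted p = 2.89e-06). Irf9, the DNA-binding subunit of ISGF3, rose by 0.92 (adjusted p = 5.53e-05). Cish, a feedback inhibitor, fell by 0.62 (adjusted p = 0.0191), a call lost without 1.5 h replicate 1 or 2 or 24 h replicate 1 or 2 (up to 0.0885). The cytokine feedback gene Socs3 differed by -0.23 (95% confidence interval -0.70 to 0.24, adjusted p = 0.67).

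Targets of interferon rose together. Of 50 type I interferon-stimulated genes, 46 were higher at 24 h and none lower, beside 2.24% of all genes, with a list median of 1.69 log2 units. Slfn4, a Schlafen gene of myeloid cells, measured 6.56, 5.62 and 5.21 at 1.5 h and 9.49, 9.90 and 8.82 at 24 h (3.61, SE 0.33, adjusted p = 1.69e-05). Phf11d rose by 3.03 (adjusted p = 7.99e-07), and Herc6, a ligase for the ubiquitin-like protein Isg15, by 2.87, from 5.93, 5.58 and 5.29 to 8.35, 8.64 and 8.40 (adjusted p = 1.83e-07). Ifit3, which binds within complexes on viral RNA, measured 8.81, 7.73 and 7.33 at 1.5 h and 10.83, 10.73 and 10.80 at 24 h (2.83, SE 0.27, adjusted p = 2.95e-05). Isg20, an exonuclease of RNA, rose by 1.63 (adjusted p = 5.87e-06). The members that did not pass were Ifi27, Ifi27l2a, Ifitm2 and Ifi205. Isg15 had no probe set with a single symbol and was not analysed here.

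The rise in these targets was measured from a level that was already raised for some at 1.5 h. Rsad2, the antiviral enzyme viperin (probe set 10399710), measured 5.39, 5.40 and 5.03 untreated, 7.92, 7.30 and 6.66 at 1.5 h, 11.21, 11.33 and 11.49 at 6 h and 9.28, 9.47 and 8.83 at 24 h. It was thus highest at 6 h, and its 24 h arrays lay above its 1.5 h arrays by 1.90 (3.73-fold, SE 0.25, adjusted p = 0.000556). In 1.5 h replicate 1 the mean over the 50 genes was 7.88, against 7.35 and 7.21 in the other 1.5 h arrays and 9.12 to 9.32 at 24 h. The means at 6 h were 9.81 to 10.05 and those of untreated skin 7.01 to 7.30.

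Among 13 GTPases that interferon induces and other targets of gamma-interferon, 10 rose, none fell and 3 did not pass. These were 76.9% higher, beside 2.24% of all genes, with a list median of 2.39. Gbp4 and Gbp3, guanylate-binding proteins that attack vacuoles of microbes, rose by 3.44 and 3.30 (adjusted p = 4.36e-07 and 3.83e-08). Gbp3 measured 6.85, 6.25 and 6.21 at 1.5 h, a range that included the untreated values of 6.53 to 6.77, and 9.71, 9.81 and 9.68 at 24 h. Iigp1, an immunity-related GTPase, rose by 2.98 and Gbp9 by 2.55 (adjusted p = 8.35e-07 and 1.99e-05). Ido1, a tryptophan-degrading enzyme, differed by 0.05 (95% confidence interval -1.05 to 1.15, adjusted p = 0.975), and its 1.5 h arrays had an SD of 1.44. The Ifi200 family genes Ifi209 and Ifi213, relatives of DNA sensors, rose by 3.58 and 3.44 (adjusted p = 1.62e-05 and 0.000328).

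Promoter sequences of a fall and 4 rises, picked by hand, are shown as examples of motif letters and not as a contrast between falls and rises. The response element core was in 16.4% of promoters of genes that rose. The kB letters were in 3.51% of those and in 1.8% of promoters of genes that fell. Each is the 200 bases before the annotated start from RefSeq (GRCm38.p6), written 5′ to 3′ on the gene's strand, with motif matches in capitals. The lines are Ifnb1 at chr4:88522795-88522994 (minus strand), Rsad2 at chr12:26456453-26456652 (minus), Ifit3 at chr19:34583329-34583528 (plus), Gbp3 at chr3:142559844-142560043 (plus) and Saa3 at chr7:46715677-46715876 (minus). In Ifnb1 the capitals mark a kB site, and in the other genes the core of the interferon-stimulated response element, on either strand. The Ifnb1 bases before its kB site also hold GAAA runs, at a spacing that the core pattern does not count.
Ifnb1: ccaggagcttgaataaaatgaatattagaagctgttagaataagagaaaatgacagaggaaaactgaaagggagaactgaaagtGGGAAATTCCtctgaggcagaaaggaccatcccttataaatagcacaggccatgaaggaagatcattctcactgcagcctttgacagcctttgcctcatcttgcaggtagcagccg
Rsad2: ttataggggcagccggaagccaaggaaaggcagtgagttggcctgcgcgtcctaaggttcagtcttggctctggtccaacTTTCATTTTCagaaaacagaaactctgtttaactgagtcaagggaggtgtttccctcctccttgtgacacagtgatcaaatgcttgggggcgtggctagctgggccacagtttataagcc
Ifit3: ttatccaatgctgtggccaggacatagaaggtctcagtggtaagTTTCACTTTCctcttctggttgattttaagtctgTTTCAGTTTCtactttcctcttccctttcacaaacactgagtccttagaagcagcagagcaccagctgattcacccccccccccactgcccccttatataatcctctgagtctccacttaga
Gbp3: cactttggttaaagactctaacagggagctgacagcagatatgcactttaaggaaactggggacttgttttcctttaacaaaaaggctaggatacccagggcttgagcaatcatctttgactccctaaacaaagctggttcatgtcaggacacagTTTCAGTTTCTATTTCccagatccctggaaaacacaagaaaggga
Saa3: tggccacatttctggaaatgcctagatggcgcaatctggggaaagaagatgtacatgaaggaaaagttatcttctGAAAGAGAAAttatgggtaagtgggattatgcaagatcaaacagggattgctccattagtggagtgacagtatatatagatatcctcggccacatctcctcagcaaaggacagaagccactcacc

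Counted back from the start, the kB site of Ifnb1 spans bases -116 to -107. The element core lies at -120 to -111 in Rsad2, at -156 to -147 and -122 to -113 in Ifit3, and at -125 to -116 in Saa3. Gbp3 holds 2 overlapping matches at -45 to -36 and -39 to -30, and the 200 bases before a second annotated Gbp3 start hold none. A promoter of 250 bases before the start was found for 15614 of the 19938 genes. The core, which is GAAA, any 2 bases and GAAA, was searched on both strands and was in 56 of 342 promoters of genes higher at 24 h (16.4%), in 3 of 111 of genes lower at 24 h (2.7%) and in 531 of all 15614 (3.4%). The kB letters, GGGA, any 2 bases and TTCC, were in 3.51%, 1.8% and 1.33% of the same groups. The GAS letters TTCNNNGAA were in 11.1%, 11.7% and 7.71%, and the CRE letters TGACGTCA in 0.877%, 2.7% and 2.33%. None of these 4 motifs was masked where another overlapped it. A match is a run of letters and not a measured binding site.

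Genes of antigen presentation by MHC class I rose as a whole list, in 15 of 15 measured cases, beside 2.24% of all genes. The list median was 1.06. H2-T24, a non-classical class I gene, measured 7.45, 6.74 and 6.93 at 1.5 h and 9.24, 9.50 and 9.31 at 24 h (2.31, SE 0.17, adjusted p = 2.98e-06). The immunoproteasome subunit genes Psmb8 and Psmb10 rose by 1.44 and 1.36 (adjusted p = 6.07e-05 and 0.000235), and the peptide transporter gene Tap1 by 1.24 (adjusted p = 0.000141). Probes of class I genes may read more than 1 of these similar genes. Of 9 class II genes, Ctss, a protease that trims the invariant chain, rose by 1.11 (adjusted p = 0.0112) and 8 did not pass. That was 11.1% called, beside 2.91% of all genes, with a median of 0.10. The call of Ctss was lost without 1.5 h replicate 2 or 24 h replicate 2 or 3 (up to 0.062). H2-Aa, a class II chain, measured 10.72, 10.45 and 10.91 at 1.5 h and 10.69, 10.82 and 10.80 at 24 h, which overlap (0.07, 95% confidence interval -0.20 to 0.35).

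Of 17 costimulation and checkpoint genes, 4 rose and 13 did not pass (23.5% higher, beside 2.24% of all genes, median 0.21). Cd274, which encodes the checkpoint ligand PD-L1, measured 6.53, 5.91 and 6.19 at 1.5 h and 8.69 to 9.04 at 24 h, a 6.51-fold rise (2.70, SE 0.16, adjusted p = 4.51e-07). Its untreated arrays, at 6.61 to 6.74, lay above the 1.5 h arrays and its 6 h arrays, at 9.41 to 9.90, above the 24 h arrays. Cd69, an early activation marker of lymphocytes, rose by 1.23 (adjusted p = 0.00548). Pdcd1lg2 and Lag3 rose by 0.54 and 0.53. Pdcd1lg2 lost its call without each of 8 libraries (up to 0.17, without 1.5 h replicate 2), which were the 3 untreated, 1.5 h replicates 1 and 2, 6 h replicate 2 and 24 h replicates 2 and 3. Lag3 lost it without 1.5 h replicate 2 or 3 or 24 h replicate 1 (up to 0.0739). The 4 rises became 2 without 1.5 h replicate 2, without moderation of the variance, or with values under 5 raised to 5. Cd40 differed by 0.98 (95% confidence interval 0.44 to 1.52, adjusted p = 0.0553). It passed without 6 h replicate 1 (0.0233) or 6 h replicate 3 (0.00129), without the 2 libraries high in Glycam1 (0.0222), and in a fit of the 6 arrays alone (0.00697).

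**Figure D4:**
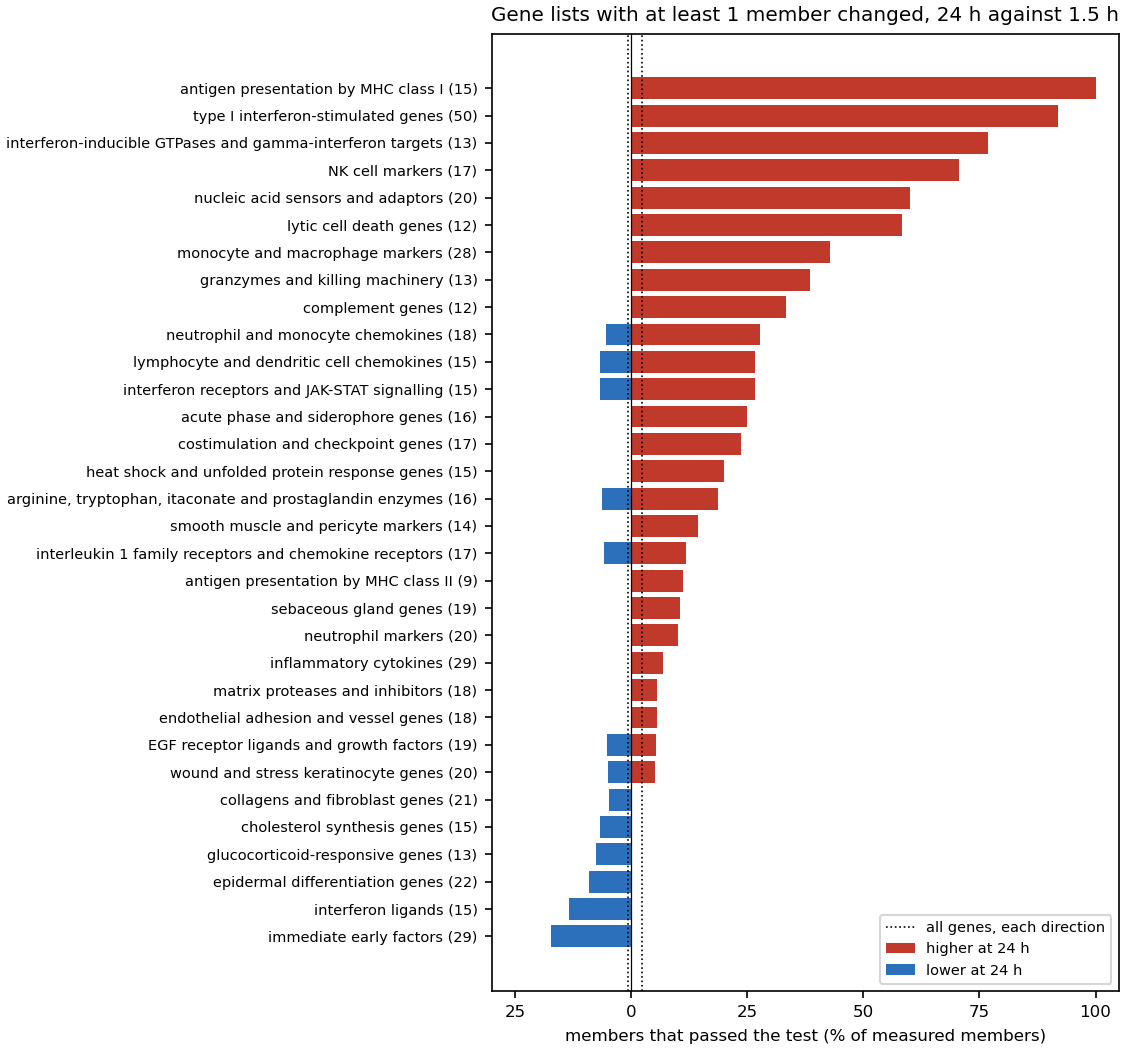
Share of measured members (in percent, number measured in brackets) that were higher (red, to the right) or lower (blue, to the left) at 24 h than at 1.5 h, for each gene list with at least 1 such member. Dotted lines mark the shares over all genes, 2.24% higher and 0.667% lower. MHC class I genes (15 of 15) and interferon-stimulated genes (46 of 50) stand at the top, and immediate early factors (5 of 29 lower) at the bottom.

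The largest difference of the comparison was that of Saa3, an acute phase gene that skin cells and macrophages express locally (probe set 10563597). It measured 5.56, 5.46 and 5.81 at 1.5 h and 10.72, 10.81 and 11.16 at 24 h, a 39.0-fold rise (5.29, SE 0.23, adjusted p = 3.18e-08). Its arrays were ordered by time, with untreated skin at 3.85 to 4.42 and the 6 h arrays at 8.84 to 9.91, and no 2 groups overlapped. Lbp, the lipopolysaccharide-binding protein, rose by 1.08, from 10.23, 10.12 and 10.44 to 11.42, 11.43 and 11.17 (adjusted p = 0.00107). Of 16 acute phase and siderophore genes, 4 rose and 12 did not pass (25% higher, beside 2.24% of all genes, median 0.23). The others were Hpx, which binds heme (0.97, lost without 1.5 h replicate 1 or 2 or 24 h replicate 2 or 3, up to 0.121), and Cp, a copper carrier (0.63, lost without 1.5 h replicate 2 or 3 or 24 h replicate 2, up to 0.0826). Lcn2, a siderophore-binding protein, differed by 0.26 (95% confidence interval -0.81 to 1.32, adjusted p = 0.865). The 4 rises became 2 without 1.5 h replicate 2 or 24 h replicate 2, without moderation, or in a fit of the 6 arrays alone.

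Of 12 complement genes, 4 rose and 8 did not pass (33.3% higher, beside 2.24% of all genes, median 0.51). Cfb, factor B of the alternative pathway, measured 9.30, 8.67 and 8.98 at 1.5 h and 11.01, 11.16 and 11.18 at 24 h, a 4.39-fold rise (2.13, SE 0.18, adjusted p = 8.96e-06). C2, its counterpart of the classical pathway, rose by 1.50 (adjusted p = 5.17e-06), and Serping1, the inhibitor of C1, by 0.68 (adjusted p = 0.000832). C1ra, a protease of C1, rose by 0.59 (adjusted p = 0.0296), a call lost without 1.5 h replicate 2 or 3 or 24 h replicate 1 or 3 (up to 0.127). C1qa, a subunit of C1q, differed by 0.16 (95% confidence interval -0.33 to 0.64, adjusted p = 0.804).

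Genes of killing and NK cells formed the other large rise. Gzmb, the protease granzyme B that triggers death of target cells (probe set 10420308), measured 4.90, 4.97 and 4.82 at 1.5 h, 6.91, 6.96 and 6.61 at 6 h, then 9.56, 9.71 and 9.58 at 24 h. The 1.5 h arrays lay next to the untreated ones at 4.57 to 4.86, and the rise was 26.3-fold (4.72, SE 0.12, adjusted p = 7.46e-11), the smallest p of the comparison's named genes. Gzma measured 5.13, 4.87 and 5.35 and then 8.41, 8.90 and 9.12, a 12.9-fold rise (3.69, SE 0.19, adjusted p = 1.28e-07). The pore former Prf1 rose by 1.15 (adjusted p = 0.00412) and Nkg7, a granule protein, by 1.62 (adjusted p = 0.000147). Prf1 was lost without moderation of the variance, where 3 of the list passed. Of 13 granzyme and killing genes, 5 rose and 8 did not pass (38.5% higher, beside 2.24% of all genes, median 0.52). Fasl, a death ligand, differed by 0.58 (95% confidence interval 0.20 to 0.97, adjusted p = 0.115, and 0.00764 without 24 h replicate 3).

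NK cell markers rose in 12 of 17 cases (70.6%, beside 2.24% of all genes) and none fell, with a median of 1.39. Gzma, Gzmb, Prf1, Nkg7 and Ccl5 are also in the lists of killing genes or chemokines. Ncr1, the NK receptor NKp46, measured 4.63, 4.09 and 4.37 at 1.5 h and 5.79, 6.60 and 5.94 at 24 h (1.74, SE 0.21, adjusted p = 0.000203). Klrk1, which encodes NKG2D, rose by 2.20 (adjusted p = 4.11e-06), Il2rb, a chain of the Il15 receptor, by 1.71 (adjusted p = 7.12e-05) and Eomes, an NK cell transcription factor, by 1.32 (adjusted p = 0.00113). The mean over the 17 markers was 4.69 to 5.13 at 1.5 h and 6.20 to 6.53 at 24 h, against 4.61 to 4.64 in untreated skin. Of 14 T cell markers, 0 passed in limma and 0 had an unadjusted p under 0.05, with a median of 0.10. In a list this short 0 calls is near the 2.91% of all genes called, and nothing is read from it. Cd3e, a chain of the T cell receptor complex, differed by -0.57 (95% confidence interval -1.16 to 0.01), and its list mean was 5.96 to 6.79 at 1.5 h and 6.22 to 6.43 at 24 h. The part of cell numbers in the rise of granzymes was not tested.

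Monocyte and macrophage markers rose in 12 of 28 cases (42.9%, beside 2.24% of all genes). None fell and 16 did not pass, with a median of 0.59. Fcgr4, an activating Fc receptor of monocytes (probe set 10351509), measured 5.79, 4.54 and 5.20 at 1.5 h and 9.04, 9.11 and 9.66 at 24 h, a 17.1-fold rise (4.10, SE 0.27, adjusted p = 7.99e-07). Ms4a4c measured 7.09, 5.52 and 6.22 and then 9.84, 10.50 and 10.66 (4.06, SE 0.35, adjusted p = 1.09e-05). In both genes the 1.5 h arrays spread by more than 1 log2 unit with replicate 1 highest, and no 1.5 h array reached a 24 h array. Fcgr1, the high-affinity Fc receptor, rose by 2.56 (adjusted p = 1.62e-05) and Ms4a6d by 1.94 (adjusted p = 0.000892). Csf1r, the macrophage growth factor receptor, differed by -0.26 (95% confidence interval -0.65 to 0.12) and Lyz2, a lysozyme of myeloid cells, by 0.05 (-0.32 to 0.43). The list mean was 7.88 to 8.44 at 1.5 h and 8.76 to 9.25 at 24 h. In the fit of the 6 arrays alone 2 markers fell.

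Neutrophil markers gave 2 rises among 20 (10%, beside 2.24% of all genes), with none lower and a median of -0.12. Clec4e, a receptor of damaged cells, rose by 1.70, from 5.18, 5.17 and 5.03 to 6.29, 6.78 and 7.41 (adjusted p = 0.00101), and the other was Csf3r, which was lost without moderation. Ly6g, the defining surface marker, averaged 3.31 at 1.5 h and 3.45 at 24 h (0.14, 95% confidence interval -0.43 to 0.71). S100a9, a calcium-binding protein of neutrophils, measured 10.09, 8.96 and 8.73 at 1.5 h and 8.35, 8.28 and 8.25 at 24 h. These groups did not overlap, yet the difference of -0.97 (95% confidence interval -1.87 to -0.06) did not pass (adjusted p = 0.284). The list mean was 5.74 to 6.53 at 1.5 h, highest in replicate 1, and 5.87 to 6.07 at 24 h.

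**Figure D5:**
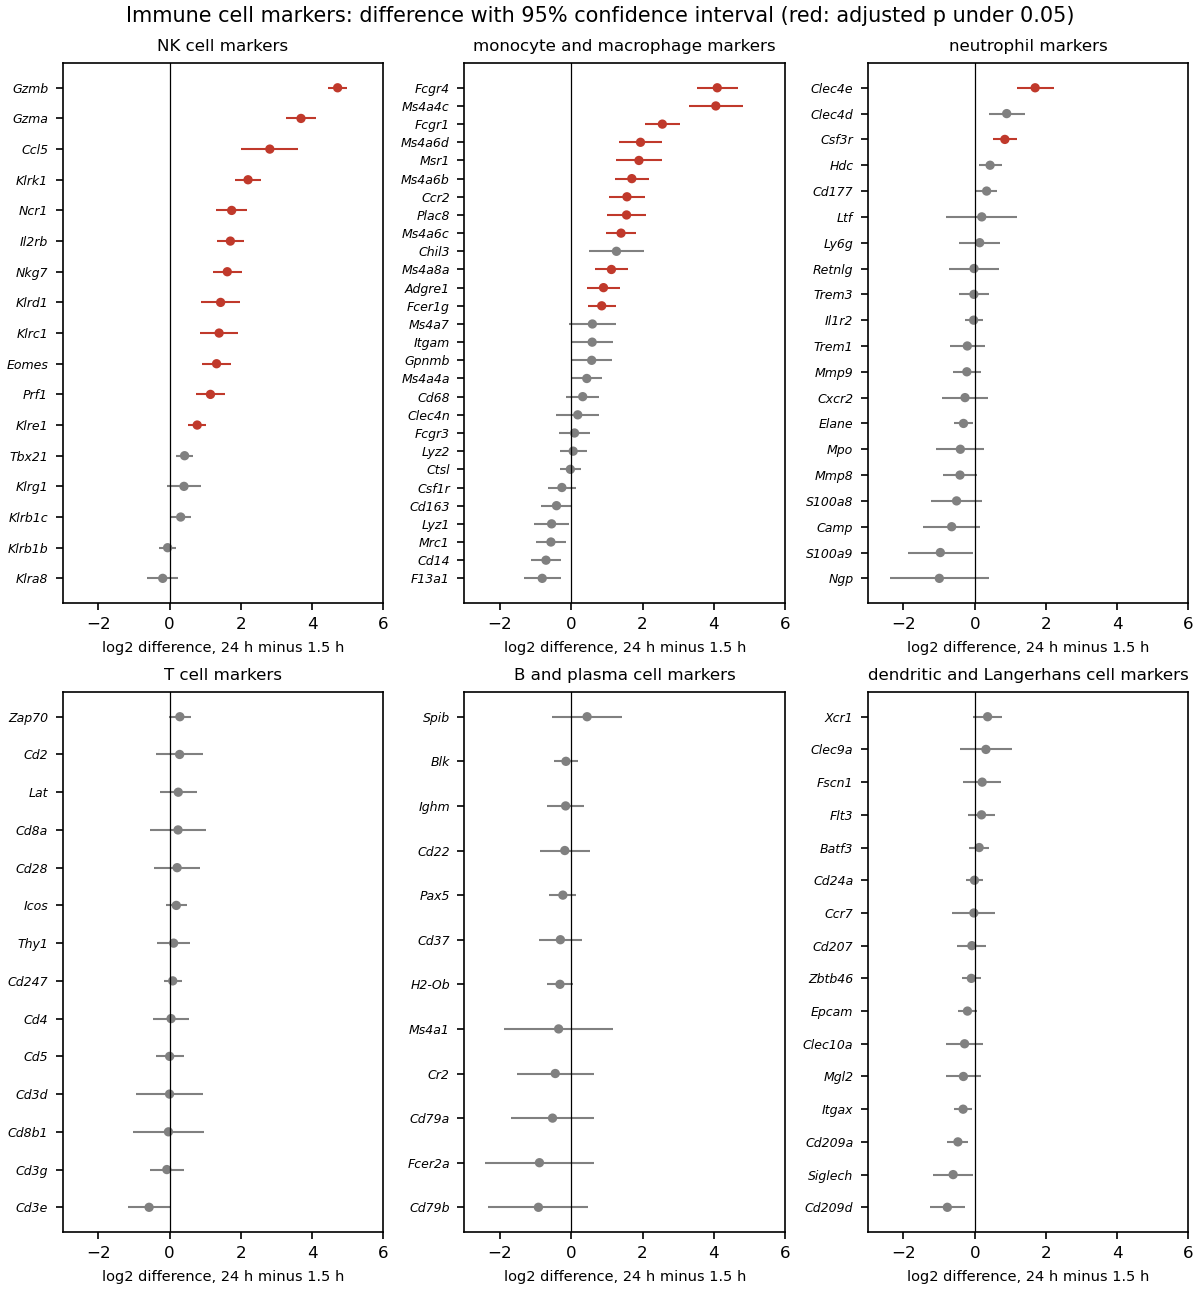
Log2 difference between 24 h and 1.5 h (24 h minus 1.5 h, with 95% confidence interval) of each measured marker of 6 immune cell types. Red markers had an adjusted p under 0.05. NK cell markers (12 of 17) and monocyte and macrophage markers (12 of 28) passed to the right of 0, beside 2.24% of all genes. No T cell, B cell or dendritic cell marker passed. In lists this short that is near the 2.91% of all genes called, and nothing is read from it.

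Markers of other cell types are given beside the same 2.91% of all genes called, and nothing is read from 0 calls in lists this short. Of 16 dendritic and Langerhans cell markers, limma called 0 (4 at an unadjusted p under 0.05), and Cd207, the Langerhans cell lectin, differed by -0.08 (95% confidence interval -0.49 to 0.33). Of 12 B and plasma cell markers, limma called 0 (0 at an unadjusted p under 0.05). The B cell list mean was 6.21 in 1.5 h replicate 1 and 4.59 to 4.85 in the other arrays compared. Of 12 mast cell markers 0 passed (4 unadjusted), and the protease gene Cpa3 differed by -0.32 (95% confidence interval -0.70 to 0.05). Of 27 skeletal muscle markers 0 passed (1 unadjusted), with list means of 9.91 to 11.22 at 1.5 h and 9.46 to 11.17 at 24 h, and 2 were lower without 24 h replicate 1. Of 23 glandular epithelium markers 0 passed (2 unadjusted), with list means of 6.58 to 7.17 and 6.41 to 6.74, both above the untreated 5.75 to 5.80. Both groups compared therefore held such transcripts, and their part in the differences was not tested.

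Genes of lytic cell death rose in 7 of 12 cases (58.3%, beside 2.24% of all genes) and none fell (median 0.79). The sensor gene Zbp1 is among them. Mlkl, the pore former of necroptosis, measured 5.99, 5.05 and 4.97 at 1.5 h and 7.28, 7.59 and 7.43 at 24 h (2.10, SE 0.21, adjusted p = 4.63e-05). Gsdmd, the pore former of pyroptosis, measured 6.44, 6.41 and 6.45 and then 7.59, 7.67 and 7.60, a 2.28-fold rise with little spread (1.19, SE 0.11, adjusted p = 1.51e-05). The inflammatory caspase genes Casp4 and Casp1 rose by 1.04 and 0.98 (adjusted p = 0.000304 and 0.00808), and Casp1 lost its call without 1.5 h replicate 2 (0.0525). The 7 rises became 4 without 1.5 h replicate 2, without moderation of the variance, or with values under 5 raised to 5.

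Enzymes of inflammatory metabolism changed one by one. Of 16, 3 rose, 1 fell and 12 did not pass (25% called, beside 2.91% of all genes, median 0.05). Nos2, the inducible nitric oxide synthase, measured 4.66, 5.11 and 4.63 at 1.5 h and 6.90, 7.75 and 7.34 at 24 h (2.53, SE 0.25, adjusted p = 4.63e-05). Acod1, which makes itaconate, measured 6.40, 5.98 and 5.44 and then 8.08, 8.53 and 7.76 (2.19, SE 0.32, adjusted p = 0.00132). Ch25h, which makes 25-hydroxycholesterol, rose by 1.78 (adjusted p = 0.00686), and Alox5, the leukotriene-forming lipoxygenase, fell by 0.64 (adjusted p = 0.00978). A further gene joined Alox5 without 6 h replicate 1, in the fit of the 6 arrays alone, or without the 2 libraries high in Glycam1. Ptgs2, the inducible cyclooxygenase, differed by -0.05 (95% confidence interval -0.66 to 0.56). Among 18 matrix proteases and inhibitors, Timp1 rose by 2.11, from 7.37, 6.54 and 7.14 to 8.85, 9.20 and 9.34 (adjusted p = 4.45e-05). The other 17 did not pass (5.56% called, beside 2.91% of all genes). Mmp9, a gelatinase, differed by -0.22 (95% confidence interval -0.62 to 0.18).

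Of 22 epidermal differentiation genes, 2 fell (9.09%, beside 0.667% of all genes) and 20 did not pass, with a median of -0.29 (12 at an unadjusted p under 0.05). Hrnr, a protein of the cornified layer, measured 10.41, 10.69 and 10.61 at 1.5 h and 9.94, 10.05 and 9.86 at 24 h (-0.62, SE 0.11, adjusted p = 0.00594). It was also below the untreated arrays of 11.03 to 11.11 at both times. Cdsn, which holds corneocytes together, fell by 0.44 (adjusted p = 0.0276), a call lost without 1.5 h replicate 2 or 3 or 24 h replicate 1 or 2 (up to 0.11). The 2 falls became 4 without 1.5 h replicate 1 or without the 2 libraries high in Glycam1. They became 1 without 1.5 h replicate 2 or 3 or 24 h replicate 1 or 2. Lor, the main cornified envelope protein, differed by -0.31 (95% confidence interval -0.54 to -0.09, adjusted p = 0.156).

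Of 19 sebaceous gland genes, 2 rose and 17 did not pass (10.5% higher, beside 2.24% of all genes, median 0.26). Cyp2g1, a cytochrome P450 gene, measured 12.19 to 12.20 untreated, 10.71, 10.17 and 10.57 at 1.5 h, and 11.31, 11.20 and 11.01 at 24 h. It rose by 0.69 between the times (adjusted p = 0.00963), which left it 1.02 log2 units below untreated skin at 24 h (adjusted p = 0.000311). Plin2, a coat protein of lipid droplets, rose by 0.77 (adjusted p = 0.0174). Plin2 lost its call without 1.5 h replicate 2 or 24 h replicate 1 or 2 (up to 0.0959), without moderation and with values under 5 raised to 5. Cyp2g1 lost its call in the fit of the 6 arrays alone. Each of these settings leaves 1 rise in the list.

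Of 20 wound and stress keratinocyte genes 10% were called, beside 2.91% of all genes. Stfa3, a protease inhibitor, rose by 1.50 and Tgm3, a transglutaminase of the cornified layer, fell by 0.76. Stfa3 lost its call without 1.5 h replicate 2 (0.0558) and Tgm3 without 24 h replicate 2 (0.0504), and a second gene fell without 24 h replicate 3, with array weights, or over genes with a mean of at least 5. Krt6b, a keratin of wounded epidermis, differed by 0.29 (95% confidence interval -1.43 to 2.01). Of 28 hair follicle genes 0 passed in limma (3 unadjusted), with Krt25 at 0.05 (95% confidence interval -1.76 to 1.86). This is near the 2.91% of all genes called, and nothing is read from it. Of 14 smooth muscle and pericyte markers the contractile genes Myh11 and Actg2 rose by 0.99 and 0.81 (14.3%, beside 2.24% of all genes). Their 1.5 h means, 7.21 and 6.99, lay below the untreated means of 8.70 and 8.20. The 24 h means of 8.20 and 7.79 lay between these. Myh11 lost its call without untreated replicate 3, 1.5 h replicate 2 or 3, 6 h replicate 2 or 24 h replicate 1 or 2 (up to 0.161), and Actg2 without 1.5 h replicate 2 or 3 or 24 h replicate 1 or 2 (up to 0.0952). The 2 rises became 0 without any of those 1.5 h and 24 h arrays, in the fit of the 6 arrays alone, without moderation or with the floor at 5. They became 1 without untreated replicate 3 or 6 h replicate 2, 4 with array weights and 5 without 24 h replicate 3.

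Single calls came from 4 more lists. In lists this short 1 call is near the 2.91% of all genes called, so it is read for the gene and not for the list. Fkbp5, a target of the glucocorticoid receptor, fell by 0.93, from 8.05, 7.97 and 7.82 to 7.02, 7.18 and 6.85 (adjusted p = 0.000458), and 12 of 13 such genes did not pass, among them Tsc22d3 (-0.26, 95% confidence interval -0.54 to 0.03). Vcam1, a leukocyte adhesion molecule of vessels, rose by 0.63 (1 of 18 vessel genes) and lost its call without 1.5 h replicate 2 or 3 or 24 h replicate 2 or 3 (up to 0.111). Without 6 h replicate 1 or with array weights a second vessel gene rose, and 3 rose without the 2 libraries high in Glycam1. Col14a1, a collagen on fibrils, fell by 0.63 (1 of 21 collagen and fibroblast genes) and lost its call without 1.5 h replicate 2 or 3 or 24 h replicate 2 or 3 (up to 0.0807). Dhcr7, an enzyme of cholesterol synthesis, fell by 0.65 (1 of 15), a call lost without each of 8 libraries (up to 0.158, without 1.5 h replicate 3), which were the 3 untreated, 1.5 h replicates 2 and 3, 6 h replicate 2 and 24 h replicates 1 and 2.

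Heat shock and unfolded protein genes rose in 3 of 15 cases (20%, beside 2.24% of all genes, median 0.08). None of the 3 calls held throughout. Ddit3, a factor of the unfolded protein response, rose by 0.73 and lost its call without 1.5 h replicate 3 (0.054). The chaperone gene Hsph1 rose by 0.55 and lost it without untreated replicate 1, 1.5 h replicate 1 or 3 or any 24 h array (up to 0.131). Hsp90aa1 rose by 0.41 and lost it without each library other than 6 h replicates 1 and 2 (up to 0.16, without 1.5 h replicate 3). For Hsph1 and Hsp90aa1 the 1.5 h means were the low ones, at 8.14 and 10.72. Their untreated means were 8.90 and 11.06, and their 24 h means 8.69 and 11.13. Ddit3 averaged 7.47 untreated, 7.33 at 1.5 h and 8.06 at 24 h. The 3 rises became 0 without 1.5 h replicate 3 and 1 without untreated replicate 1, 1.5 h replicate 1 or any 24 h array. They became 1 in the fit of the 6 arrays alone, without moderation, with arrays centred on their medians, and without the 2 libraries high in Glycam1.

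With 2.91% of all genes called, 0 calls in lists as short as the following are near the background, and nothing is read from them. Limma gave 0 calls for 30 cell division genes (3 at an unadjusted p under 0.05), 17 clock genes (3), 25 mitochondrial respiration genes (2), 18 metallothionein, iron and oxidative stress genes (6) and 15 adipocyte genes (2). Mki67, a marker of dividing cells, differed by 0.06 (95% confidence interval -0.25 to 0.37), and the clock gene Arntl by -0.15 (-0.36 to 0.06). The respiratory subunit Sdhd differed by -0.38 (-0.65 to -0.10) and the metallothionein Mt2 by -0.30 (-0.55 to -0.06). The fat cell hormone gene Adipoq differed by -0.08 (-0.47 to 0.32).

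MicroRNA genes gave 3 calls among 302, which were higher at 24 h, and 0 lower calls (limma, 30 at an unadjusted p under 0.05, median 0.04). This count is not above the 2.24% of all genes called higher, and nothing is read about microRNA genes as a group. The array reads the transcribed region of such a gene and not the mature molecule. The mature RNAs of Mir15a (chr14, minus strand) and Mir350 (chr1, minus strand) from RefSeq (GRCm38.p6) are given 5′ to 3′ with the seed, bases 2 to 8, in capitals, to show that the 4 seeds differ. Mir143, the third, is named only.
mmu-miR-15a-5p: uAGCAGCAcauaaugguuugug
mmu-miR-15a-3p: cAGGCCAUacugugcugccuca
mmu-miR-350-5p: aAAGUGCAugcgcuuuggg
mmu-miR-350-3p: uUCACAAAgcccauacacuuuc

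Mir15a measured 5.01, 5.84 and 5.78 at 1.5 h and 6.81, 7.37 and 6.89 at 24 h, a difference of 1.48 (SE 0.29, adjusted p = 0.0105). The 1.5 h arrays were the low ones, since untreated skin measured 6.94, 7.71 and 8.09 and the 6 h arrays 7.05 to 7.66. Mir350 followed the same order, at 3.78, 3.48 and 3.95 at 1.5 h against 5.12, 5.24 and 4.42 at 24 h and 5.18 to 5.34 untreated (1.19, SE 0.22, adjusted p = 0.00858). Mir143 measured 4.58, 4.45 and 4.28 at 1.5 h and 5.52, 5.36 and 5.04 at 24 h (0.87, SE 0.14, adjusted p = 0.00331), with untreated skin at 4.99 to 5.37. The call of Mir15a was lost without 24 h replicate 2 (adjusted p = 0.0645), and that of Mir350 without 1.5 h replicate 2 or 24 h replicate 2 (up to 0.0543). With values under 5 raised to 5 the calls of all 3 were lost.

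The place of the 6 h arrays separated the genes that rose. Of the 447, 209 had a 6 h mean above both the 1.5 h and the 24 h mean (46.8%), as Rsad2, Ifih1 and Cd274 had, 216 lay between, as Saa3, Gzmb and Fcgr4 did, and 22 lay below both. Over all genes the shares above, between and below were 33.4%, 25.2% and 41.4%. Of the 133 genes that fell, 95 had a 6 h mean between the others, as Ifnb1 and Ifna4 had, 35 lay below both and 3 above. Untreated skin lay below both means for 218 of the 447 genes and between them for 190, as for Gbp3. It lay above both for 39, as for Cyp2g1. These are shares of 48.8%, 42.5% and 8.72%, beside 37.2%, 30.2% and 32.6% of all genes. These positions are descriptions of group means, and the 1.5 h and 24 h means that enter them are those on which the genes were called.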

How the data were processed

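Log2 intensities were deposited by the authors for 12 arrays, for which the submitters' processing notes name RMA and Affymetrix Expression Console 1.1. No detection p-values were given, so low values were not called absent. Of 35556 probe sets, 23410 were in the platform annotation, 21789 with 1 symbol and 1621 with several. The other 12146 were unlisted. The RefSeq table held 21698 of their gene IDs and changed 0 symbols. For 999 genes with several probe sets the one with the highest mean was kept.

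All 12 arrays were fitted with lmFit and eBayes of limma 3.58.1 (R 4.3.3), leaving 8 residual degrees of freedom and adding 5.24 from the prior. The contrast was 24 h minus 1.5 h, two-sided, and p-values were Benjamini-Hochberg adjusted over 19938 genes. Contrasts with untreated skin come from the same fit and share arrays with this one. In those contrasts 670 of the 19938 genes (3.36%) were called at 24 h and 439 (2.2%) at 1.5 h. An exact permutation test of 3 against 3 arrays cannot go below p = 0.1. In 10 simulations of this comparison, 200 of 19938 genes were changed. Of changes of 0.5, 1, 2 and 3 log2 units, 36.8%, 89.8%, 99% and 99.8% were called, with a mean of 8.3 false calls. The simulated noise was independent between genes, and all changes were upward. Differences in tissue content between arrays were not simulated, so these rates may not hold for the real arrays.

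The members and the 52 gene lists were chosen with earlier results of these data known. Genes were named by rule: the 12 largest rises and falls among called genes without overlap, skipping predicted genes, clones and small RNAs, up to 4 called members of each list with the largest difference, the largest called the other way, the best known member not called, the defining marker of a cell type, called microRNA genes, and a fixed set (Ifnb1, Ifna4, Cxcl10, Il6, Tnf, Ccl2, Ccl5, Saa3, Gzmb, Rsad2, Ddx58, Ifih1, Tlr7, Glycam1, Myl2, Krt18, Csn3). The best known members and defining markers (for NK cells Ncr1, Eomes and Il2rb) were picked after their values were seen, as were Tlr3, Isg20 and Casp1, which were called and fall outside the rule, and the skipped and uncalled genes named for completeness. Figures were drawn with matplotlib 3.10.9. Alternatives were the replicate block, leaving out each library, other variance models, filters, scalings, probe set rules and thresholds. Leaving out the 2 libraries high in Glycam1 was added after seeing the data. The replicate numbers were checked for pairing between the 1.5 h and 24 h arrays only.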

Additional observations from a re-analysis of the deposited data

Results flagged for a closer look

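Some probe sets outside the comparison also passed the test. Of 1621 probe sets with several gene symbols, 46 were higher at 24 h than at 1.5 h and 0 lower (2.84% called, limma). All 46 of these had every 24 h array above every untreated array. Of 12146 probe sets without a platform annotation, 76 were higher and 11 lower (0.716% called), and 49 of the 76 had every 24 h array above every untreated array. No gene was named from them. The 46 and the 76 were called for being higher at 24 h, which favours high 24 h values. The share of all probe sets with 24 h arrays wholly above untreated ones was not computed. Nothing is therefore read from the 46 and the 49. With 3 arrays a group, single outlying arrays were not tested for.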

How the results depend on the processing

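The count of changed genes was 321 to 653 with each library left out (280 to 479 higher, 41 to 174 lower). It was 340 without moderation of the variance (274 higher, 66 lower), 309 at an adjusted p under 0.01 (275 and 34) and 232 with at least a 2-fold difference (218 and 14). Falls numbered 70 in a fit of the 6 arrays alone, 69 over every probe set, 206 over genes with a mean of at least 5 and 226 without the 2 libraries high in Glycam1. Other counts stayed within 1.5 times the 580. No named call reversed its direction in any of these alternatives.

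Of 109 named genes that were called, 77 kept the call with every library left out in turn and 32 lost it at least once, most often without 1.5 h replicate 2 (26) or 24 h replicate 2 (25). Without moderation 34 lost it, among them Cyp1a1, Egr1, Ccl12, Csf3r, Cd69, Prf1 and Ch25h, and 31 with values under 5 raised to 5, among them Cxcl5. A fit of the 6 arrays alone lost 17, among them Cyp2g1. The cause was not tested. Arrays centred on their medians gave 71.8% of calls higher, against 77.1%.

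Deviations of same-numbered 1.5 h and 24 h arrays correlated at 0.087, -0.22 and 0.07, within the range of differently numbered ones (-0.28 to 0.21). Replicate numbers thus showed no pairing between these groups. Pairing or batches shared with other groups were not tested, among them the 1.5 h and 6 h arrays high in Glycam1. With the replicate block, 593 genes were called (440 higher, 153 lower), and 3 of 109 named calls were lost (Lgi1, Hsph1 and Hsp90aa1). Low intensities limit single genes near the bottom of the scale, where no detection call was given.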
